A study of Danio rerio with 8 samples.

Results

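The complement components examined here are c1qa, c1qb, c1qc, c3a.1, c4b, c7b, cfb and cfd, 8 genes chosen by name from the 25309 entries of an RNA-seq table of zebrafish spinal cord. Fish carrying a mutation in mstnb, which encodes a secreted myostatin of the TGF-beta family, were compared with wild-type siblings, without injury and 1 week after complete transection of the cord (1 wpi). Each of the 4 groups held 2 libraries: wild type uninjured (libraries 1 and 2), mstnb mutant (-/-) uninjured (1 and 2), wild type 1 wpi (1 and 3) and mstnb mutant (-/-) 1 wpi (1 and 2). The fish were of both sexes and aged 3 to 9 months, the lesion was made 4 mm caudal to the brainstem, and a 2 mm piece of cord around it was used. The labels name no transgene or Cre, mark no library as sham-operated, and do not say how many animals a library holds. Since nothing shows that libraries came from separate animals, a p-value here reflects the spread among libraries only, and that spread may be technical.

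Complement is a cascade of secreted proteins that tags cells and debris and can punch pores into membranes. C1q binds the target and starts the classical route, in which C4 is cut and helps to cut C3, the central opsonin. In the alternative route factor D cuts factor B, which then cuts more C3. Fragments of C3 and C5 draw in phagocytes, and C6, C7, C8 and C9 assemble after C5 into the membrane attack complex. In mammals C1q is made largely by macrophages and microglia, whereas the liver is the main source of circulating C3 and factor B, and in the mammalian brain C1q and C3 take part in the removal of synapses by microglia. Zebrafish carry several copies of some of these genes, such as a c3a series and a pair of c7 genes. In the RefSeq assembly GRCz12tu all 8 members were found, with c1qb, c1qc and c1qa side by side, c3a.1 next to c3a.5, and c7b next to and overlapping c6 (named c6.2 there).

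The libraries held 20082743 to 33410514 reads assigned to genes, and values are given as CPM, which scales each library to the same total. CPM is not scaled by transcript length, so levels are compared between samples and not between genes. Changes are log2 differences of CPM + 1 between group means, minus the median difference of all 19114 genes tested, with the standard error (SE) of limma's moderated test. That median was 0.29 for injury in wild type, 0.37 for injury in mutants and 0.31 for the average of both. Calls required a Benjamini-Hochberg adjusted p from limma under 0.05. The p belongs to the difference before the median is subtracted. As the injury medians were above 0, rises relative to the median were called more readily than falls. As a check of the labels, mstnb ran from 10.2 to 26.4 CPM in the 4 mutant libraries and from 42.2 to 74.8 CPM in the 4 wild-type libraries, so every mutant library was below every wild-type one. The cord markers gfap (radial glia), mbpa (myelin) and snap25a (neurons) were abundant in all 8 libraries, at 1533 CPM or more. Oocyte transcripts were highest in 2 libraries, uninjured wild type 1 and injured mutant 1, where 11 markers summed to 1034 and 1320 CPM, and the former also held the most liver transcripts. All 8 members passed the expression filter of a mean of 1 CPM in at least 1 group; c1qa passed only through the injured wild type and cfb only through the uninjured wild type.

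In the injured cord c7b was called higher in both genotypes, and c1qc was called higher when the genotypes were averaged. The level of c1qb in CPM was higher in every injured library than in every uninjured one, as for 21.3% of all genes tested, but missed the threshold. So did c1qa, whose separation is not counted, since it entered the test only through the injured wild type. The level of cfd was lower in every injured library, as for 2.44% of all genes tested. Its averaged change did not pass in the main fit, but did with TMM scaling, edgeR and DESeq2. High c3a.1 and cfb values came from a single uninjured wild-type library, and c4b had overlapping groups throughout. Thus 1 of 8 members was called for injury in wild type, where 3.86% of all genes tested were called, and 1 of 8 for injury in mutants, where 3.19% were. Averaged over genotypes, 2 of 8 were called, against 12.2% of all genes.

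**Figure D1:**
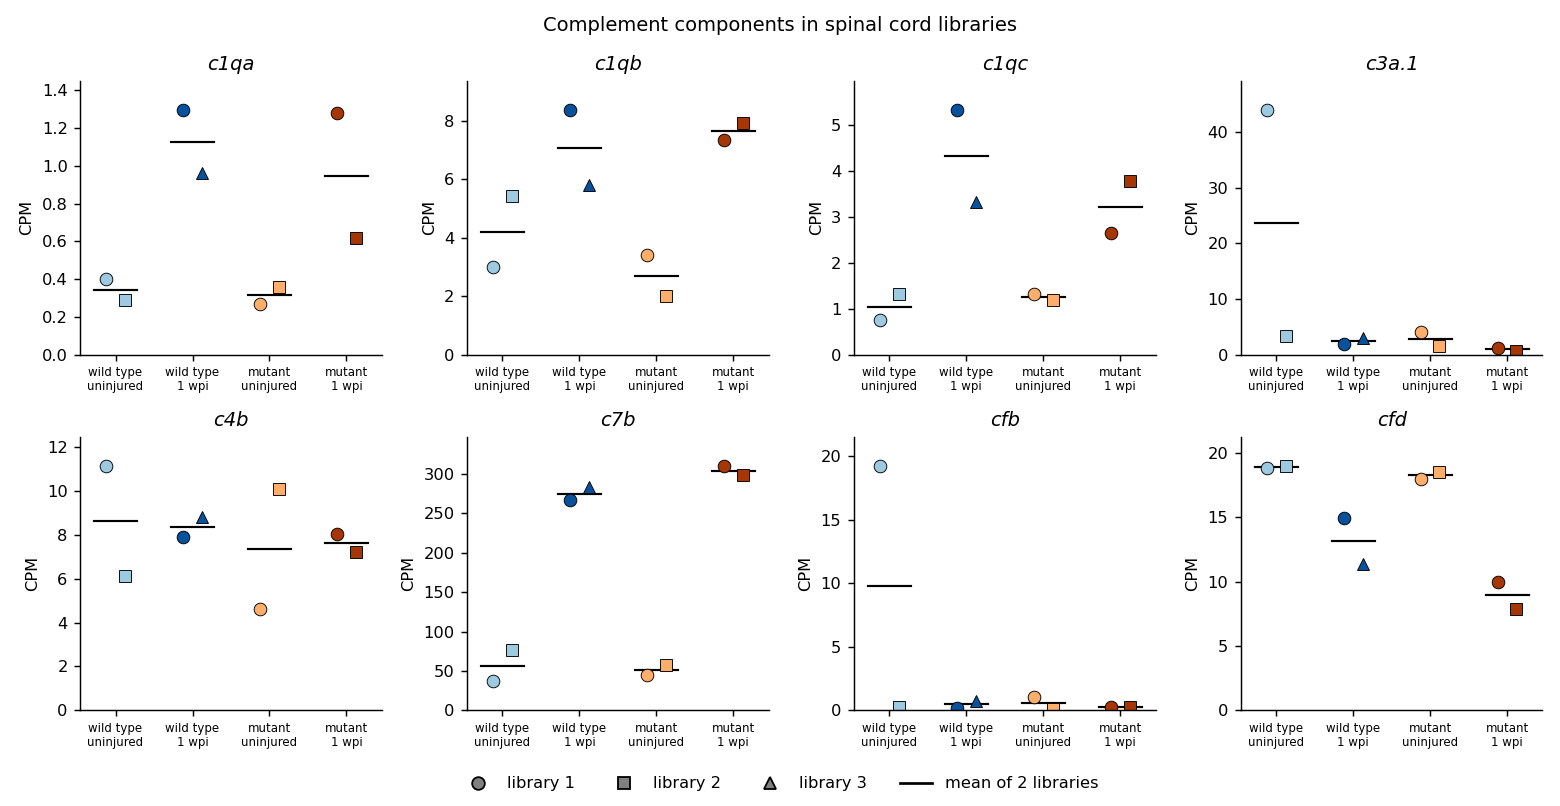
CPM (linear axes from 0) of the 8 complement members by group, with a panel per gene; points are libraries, their shape gives the library number, and lines are the means of the 2 libraries of a group. All injured libraries lie above all uninjured ones for c7b and the C1q genes and below them for cfd. For c1qa this is not counted, since it passed the filter only through the injured wild type. In c3a.1 and cfb 1 uninjured wild-type library stands far above the rest.

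C1q is built from A, B and C chains, encoded here by c1qa, c1qb and c1qc. The C chain gene, c1qc, had 0.759 and 1.32 CPM in uninjured wild type, 1.32 and 1.197 CPM in uninjured mutants, 5.33 and 3.32 CPM in injured wild type, and 2.65 and 3.79 CPM in injured mutants. Every injured library was above every uninjured library, and the injured mutants overlapped the injured wild type. Group means were 1.04 ± 0.395 and 4.32 ± 1.42 CPM before and after injury in wild type, and 1.26 ± 0.0847 and 3.22 ± 0.806 CPM in mutants (SD, n = 2). Averaged over genotypes, the change was 0.82 ± 0.29 (log2, SE), with a limma adjusted p of 0.0282, and the ratio of mean CPM was 3.29. In wild type alone the change was 1.09 ± 0.42 (limma adjusted p = 0.0966), and in mutants alone it was 0.52 ± 0.42 (limma adjusted p = 0.297). The averaged call was lost in 8 of 17 alternatives, among them scaling by TMM (adjusted p = 0.0799) and edgeR's count test on the recovered reads (adjusted p = 0.0953, change 1.34). It was also lost without uninjured mutant 1 (0.0766), injured wild type 1 (0.140) or 3 (0.0679), or injured mutant 1 (0.0841) or 2 (0.156), as limma adjusted p-values.

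For c1qb, the B chain, the uninjured libraries had 2.99 and 5.43 CPM in wild type and 3.41 and 2.00 CPM in mutants, and the injured libraries had 8.37 and 5.82 CPM in wild type and 7.35 and 7.93 CPM in mutants. In CPM the injured libraries were again all above the uninjured ones. The nearest values, 5.43 CPM in uninjured wild type 2 and 5.82 CPM in injured wild type 3, were close. The TMM factors of these libraries were 1.00 and 1.19, so dividing by them would reverse the order, and the separation holds in CPM only. The averaged change was 0.64 ± 0.30 (log2, SE; limma adjusted p = 0.0606), with a ratio of mean CPM of 2.13. It was 0.37 ± 0.43 in wild type (limma adjusted p = 0.427) and 0.88 ± 0.43 in mutants (limma adjusted p = 0.149), and neither passed.

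For c1qa, the A chain, counting was sparse. It had 0.402 and 0.288 CPM in uninjured wild type, 0.269 and 0.359 CPM in uninjured mutants, 1.29 and 0.962 CPM in injured wild type, and 1.28 and 0.617 CPM in injured mutants. These correspond to 7 to 9 reads in an uninjured library and 14 to 28 reads in an injured one. All injured libraries were above all uninjured ones, but c1qa passed the expression filter only through the injured wild type, so this is partly set by the filter. The averaged ratio of mean CPM was 3.15, but the change on the log2(CPM + 1) scale was 0.29 ± 0.27 (SE; limma adjusted p = 0.164), because a pseudocount of 1 exceeds most of the values. On that scale the averaged value became -0.000363 with a pseudocount of 5, while edgeR on the recovered reads gave 1.38 in wild type (adjusted p = 0.454) and 1.17 in mutants (adjusted p = 0.692).

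The injured and uninjured libraries of c1qb and c1qc were thus apart in CPM, for c1qb only without TMM scaling. Such a separation was seen upward for 21.3% and downward for 2.44% of all genes tested in the averaged comparison. The separation of c1qa is not counted here, since this gene entered the test only through the injured wild type. Markers of macrophages and microglia were higher as well, as were other marker sets given below with c7b. Of 28 macrophage and microglia markers, none a complement gene, 17 were called higher with injury averaged over genotypes and 0 lower. Among all genes 12.2% were called in either direction. The median change of the 28 markers was 0.85 (log2). Their summed level ran from 1917 to 3119 CPM in uninjured and from 16842 to 22220 CPM in injured libraries. The apolipoprotein gene apoeb makes up most of the injured sum; without it the ranges were 1199 to 2093 CPM and 4368 to 5105 CPM. The gene csf1ra, the macrophage growth factor receptor, ran from 8.48 to 20.9 CPM in uninjured and from 60.7 to 80.2 CPM in injured libraries, and mpeg1.1, a macrophage perforin, from 0.748 to 1.48 CPM and from 2.42 to 2.79 CPM. None of the 28 markers was at 0 in any library. The part of these cells in the C1q values was not tested, and in bulk tissue a change in the number of cells of a type and a change in RNA per cell cannot be told apart.

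**Figure D2:**
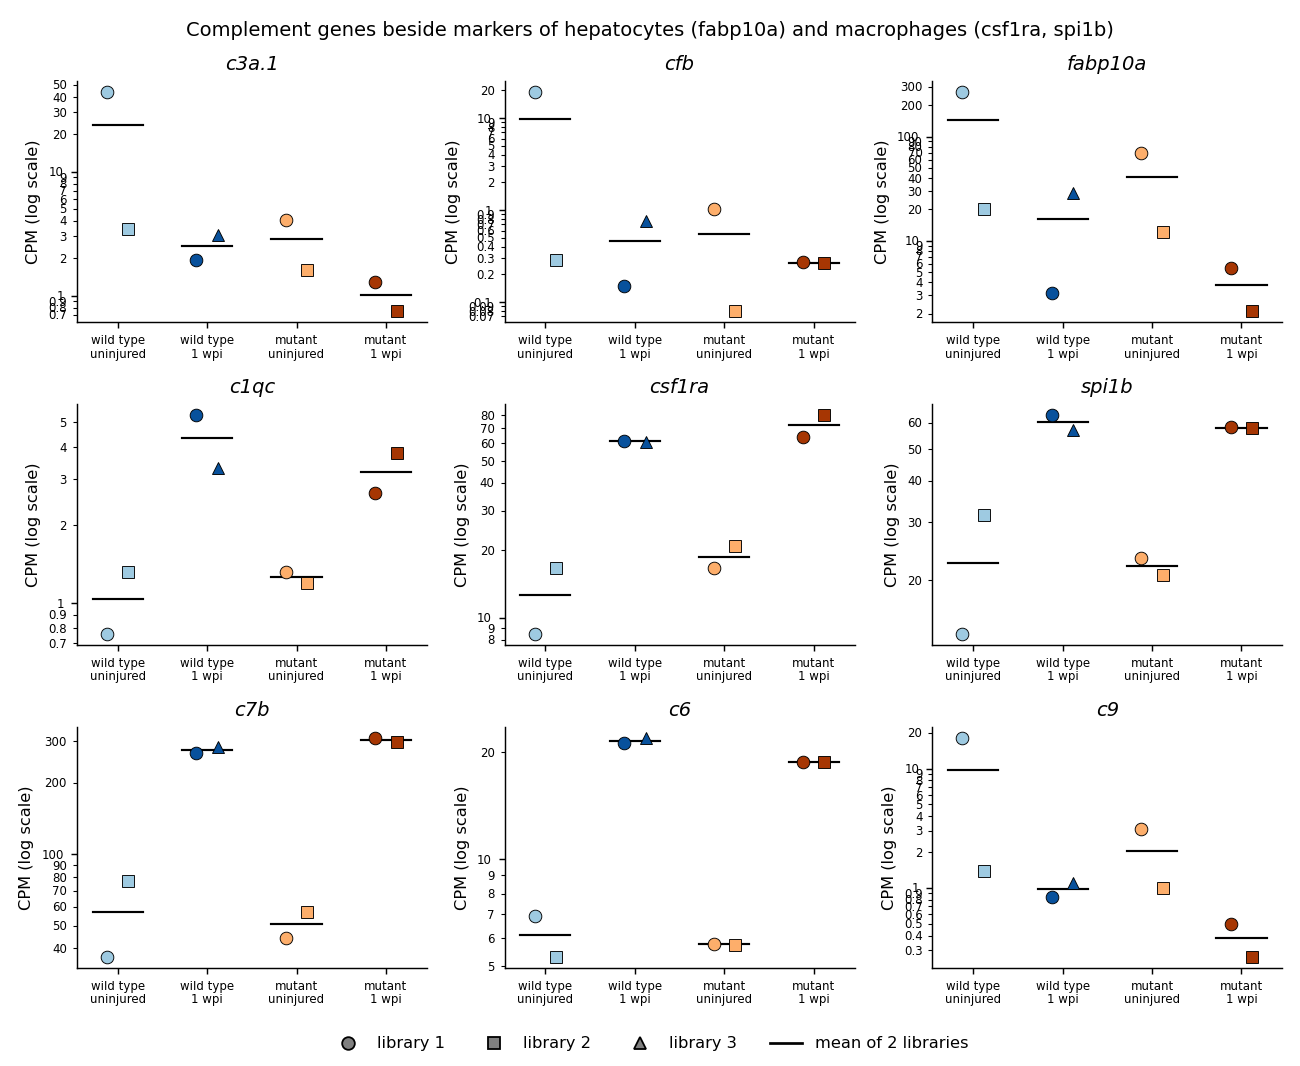
CPM (log axes) by group of c3a.1, cfb, c1qc, c7b, c6 and c9 beside the hepatocyte marker fabp10a and the macrophage markers csf1ra and spi1b; points are libraries and lines the means of the 2 libraries of a group. The markers csf1ra and spi1b are higher in all injured libraries, as are c1qc, c7b and c6, while c3a.1, cfb, c9 and fabp10a are highest in uninjured wild type 1.

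C4, cut by the C1 complex, is the component that follows C1q in the classical route. Its gene c4b had 11.2 and 6.13 CPM in uninjured wild type, 4.64 and 10.1 CPM in uninjured mutants, 7.92 and 8.81 CPM in injured wild type, and 8.04 and 7.23 CPM in injured mutants. The injured libraries lay inside the range of the uninjured ones. The change was -0.28 ± 0.44 in wild type (log2, SE; limma adjusted p = 0.996) and -0.24 ± 0.44 in mutants (limma adjusted p = 0.909), and the 95% interval of the averaged change ran from -0.93 to 0.43. Means were 8.64 ± 3.55 and 8.36 ± 0.628 CPM in wild type and 7.37 ± 3.86 and 7.63 ± 0.575 CPM in mutants (SD, n = 2). The sign of the wild-type change depended on 1 library: without uninjured wild type 1 it was 0.27.

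The gene c3a.1 encodes a C3, the protein on which all routes converge. It had 43.9 CPM in uninjured wild type 1 and 3.41 CPM in uninjured wild type 2. The uninjured mutants had 4.101 and 1.60 CPM, the injured wild type 1.94 and 3.08 CPM, and the injured mutants 1.28 and 0.749 CPM. A single library, with 984 reads of this gene against 17 to 137 in the others, therefore set the uninjured wild-type mean of 23.7 ± 28.6 CPM (SD, n = 2). The change with injury was -2.31 ± 0.82 in wild type (log2, SE; limma adjusted p = 0.202) and -1.23 ± 0.82 in mutants (limma adjusted p = 0.622). Without uninjured wild type 1 the wild-type change was -0.47, and without uninjured wild type 2 it was -4.13, then called (limma adjusted p = 0.00105). Mutants alone, which do not include that library, had 1.28 and 0.749 CPM after injury, below the 4.101 and 1.60 CPM before it. Without uninjured mutant 1 the change in mutants was -0.47. That library held 695 CPM of hepatocyte markers without apoc1, against 233 CPM in uninjured mutant 2. DESeq2 on the recovered reads called the averaged change, at -2.89 (adjusted p = 0.0184). Since c3a.1 lies beside c3a.5, another gene of the c3a series, and no source used here gives the counting rule, any reads common to such copies may have been split between them.

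In the alternative route, cfb encodes factor B. It had 19.2 CPM in uninjured wild type 1 and between 0.0798 and 1.02 CPM in the other 7 libraries. Its read count was 431 in that library, with 7 reads in the other uninjured wild type, 34 and 2 in the mutants before injury, 3 and 16 in the wild type after it, and 6 in either injured mutant. Outside uninjured wild type 1 the groups overlapped, and at this depth no difference among them was detectable. The fitted change was -2.13 ± 0.92 in wild type (log2, SE; limma adjusted p = 0.300) and -0.59 ± 0.92 in mutants (limma adjusted p = 0.924). Without uninjured wild type 1, cfb no longer passed the expression filter. In GRCz12tu the gene overlaps slc29a2 and si:dkeyp-50d11.2, so part of its reads may belong to those genes.

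The library with the high c3a.1 and cfb values was also high in liver transcripts. In uninjured wild type 1, c3a.1 was 10.7 times and cfb 18.9 times the highest of the other 7 libraries. Since cfb passed the filter only through this group, an excess of over 2 times was counted among genes whose mean over the other 7 libraries reached 1 CPM, a filter chosen after seeing the data. It was seen for 1 of 6 members (c3a.1), 5 of 27 complement genes (18.5%) and 14 of 19 hepatocyte markers that are no complement genes (73.7%), against 1.06% of 17669 genes. The liver fatty acid binding protein gene fabp10a had 268 CPM in that library and 2.11 to 70.3 CPM in the others. The 25 markers summed to 3046 CPM there and to 358 to 1223 CPM elsewhere; without apoc1, which is also known from macrophages, the sums were 2605 CPM and 106 to 695 CPM. Among the markers, fgg was at 0 in injured wild type 1 and rbp2b at 0 in 3 of the injured libraries. The part of liver RNA in the c3a.1 and cfb values was not tested. Among genes averaging 5 CPM or more, the patterns nearest to c3a.1 over the 8 libraries, by the root mean square difference of centred log2 values, were those of apobb.1 (0.439), fgb (0.465) and fga (0.492), an apolipoprotein B and 2 fibrinogen chains, all on the hepatocyte list; cfb, below that limit, was nearer (0.361). For cfb they were c3a.1 (0.361), apobb.1 (0.445) and aqp12 (0.476). The average of 5 CPM included uninjured wild type 1. There apobb.1, fgb and fga had 27.4, 39.4 and 29.2 CPM, against at most 6.52, 6.41 and 6.41 CPM in the other libraries. The limit thus favoured genes high in that library, so these likenesses are partly set by it.

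**Figure D3:**
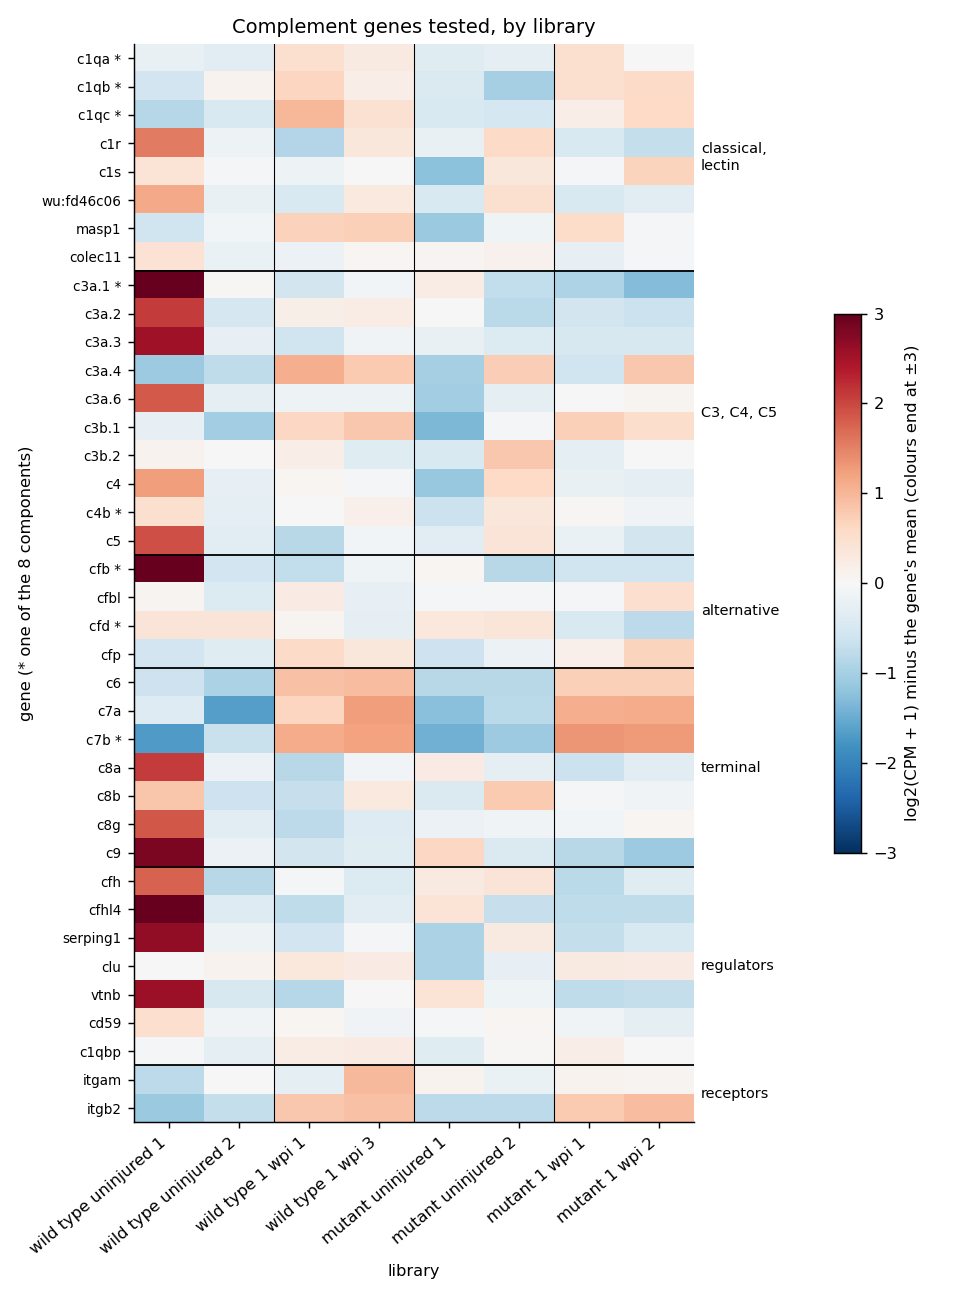
Heatmap of the members and other tested complement genes (rows) over the 8 libraries (columns); colour is the log2(CPM + 1) value minus the gene's mean. A block of genes that includes c3a.1 and cfb is high in uninjured wild type 1, while c7b, c7a and c6 are high in all 4 injured libraries. Some genes of the block, cfb among them, passed the expression filter only through the uninjured wild type, so the block is partly set by the filter.

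The gene cfd encodes factor D, the protease that cuts factor B. Among the members it had the closest uninjured replicates, with 18.9 and 19.0 CPM in wild type and 18.0 and 18.6 CPM in mutants. After injury it had 14.99 and 11.4 CPM in wild type and 10.002 and 7.89 CPM in mutants. Every injured library was below every uninjured one, and both injured mutants were below both injured wild types. Separation downward in the averaged comparison was seen for 2.44% of all genes tested. The ratio of mean CPM after to before injury was 0.697 in wild type and 0.490 in mutants. The averaged change was -1.05 ± 0.24 (log2, SE) with a limma adjusted p of 0.0654, so it was not called, nor was it in wild type (-0.79 ± 0.34, limma adjusted p = 0.441) or mutants (-1.33 ± 0.34, limma adjusted p = 0.157). Muscle and blood markers were lower in the same libraries. On average 9 of 12 skeletal muscle and 6 of 6 erythrocyte genes were called lower, against 231 of 19114 genes. The muscle sum ran from 5554 to 21211 CPM in uninjured and from 1263 to 3286 CPM in injured libraries. Lower too were the oligodendrocyte sum, 88869 to 134393 against 44192 to 50754 CPM, and the hepatocyte sum without apoc1, 220 to 2605 against 106 to 201 CPM. Of 9 oligodendrocyte genes, however, 1 was called lower and 3 higher. Of 25 hepatocyte genes 4 were called lower and 1 higher. With apoc1 included, the hepatocyte sums overlapped, at 358 to 3046 CPM in uninjured and 999 to 1223 CPM in injured libraries. The part of any of these cells in the cfd values was not tested. The averaged change of cfd passed in 4 of 17 alternatives: scaling by TMM (adjusted p = 0.0183), edgeR (0.0179), DESeq2 (0.000251), and limma without uninjured wild type 2 (adjusted p = 0.0391).

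C7, encoded by c7b, binds the C5b-C6 complex and anchors the growing pore in the membrane. Its gene had 36.8 and 76.9 CPM in uninjured wild type, 44.3 and 57.1 CPM in uninjured mutants, 267 and 284 CPM in injured wild type, and 310 and 298 CPM in injured mutants. The lowest injured library was far above the highest uninjured one. The injured means were 275 ± 11.9 CPM in wild type and 304 ± 8.31 CPM in mutants, against uninjured means of 56.8 ± 28.3 and 50.7 ± 9.09 CPM (SD, n = 2). The change was 2.06 ± 0.34 in wild type (log2, SE; limma adjusted p = 0.00391) and 2.21 ± 0.34 in mutants (limma adjusted p = 0.00258), and the ratios of mean CPM were 4.84 and 6.001. Averaged over genotypes it was 2.14 ± 0.24 (limma adjusted p = 0.000114), the value of rank 77 from the top among 19114 genes. The averaged call held in all 17 alternatives, with values from 1.93 to 2.34. Fibroblast markers were also higher: 6 of 8 were called higher on average and 0 lower, where 12.2% of all genes were called in either direction. Their median change was 1.41 (log2), and their sum ran from 297 to 492 CPM in uninjured and from 732 to 1216 CPM in injured libraries. By genotype, 5 of the 8 markers were called higher in wild type, with a median change of 2.38, and 1 of the 8 in mutants, with a median of 0.59, while c7b changed by 2.06 and 2.21. Radial glia markers were higher too, with 6 of 11 called higher on average and 0 lower and a median change of 0.49. Their sum ran from 8217 to 10603 CPM in uninjured and from 14797 to 16518 CPM in injured libraries. The part of fibroblasts, radial glia or macrophages in the c7b values was not tested. In wild type alone the c7b call was lost without injured wild type 1 (limma adjusted p = 0.0594) or 3 (0.0669), or when only the 4 wild-type libraries were fitted (0.0508), and in mutants alone without uninjured mutant 1 (0.0636).

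**Figure D4:**
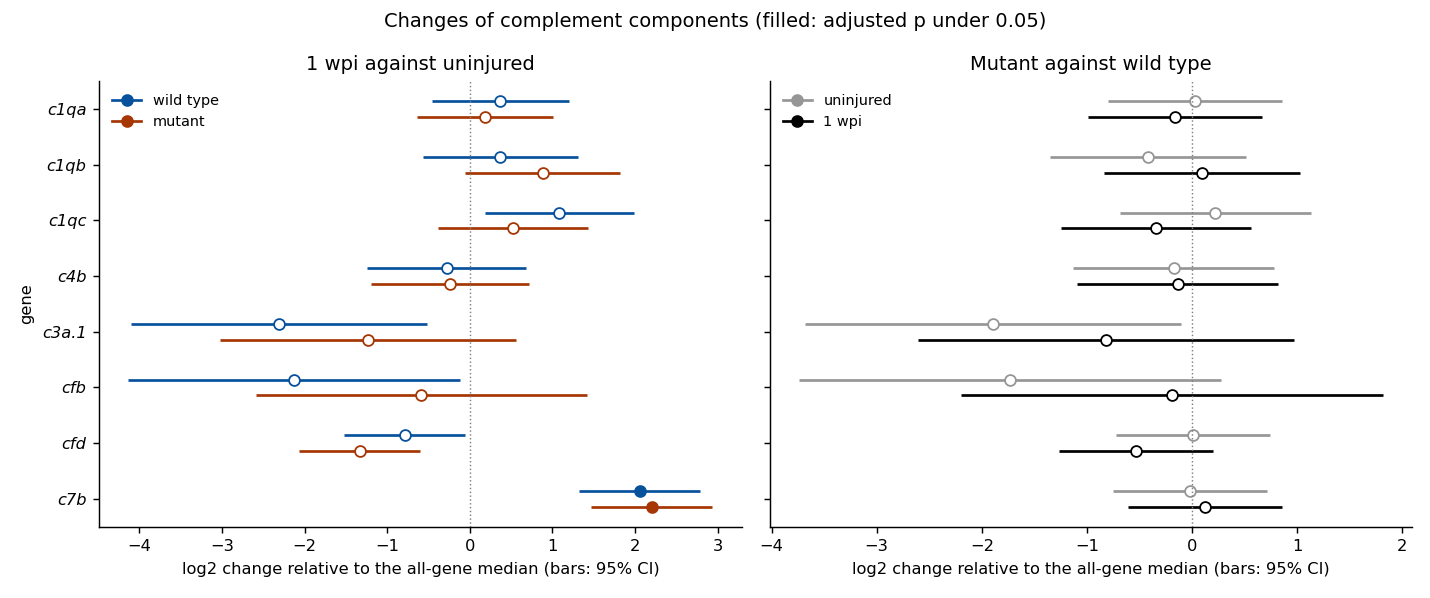
Log2 change of each member relative to the median of all genes tested, with injury in either genotype (left) and in mutants against wild type, uninjured and at 1 wpi (right); bars are 95% confidence intervals from limma and filled points were called. The intervals of c7b with injury lie well above 0 in both genotypes, and the intervals of c3a.1 and cfb are the widest.

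**Figure D5:**
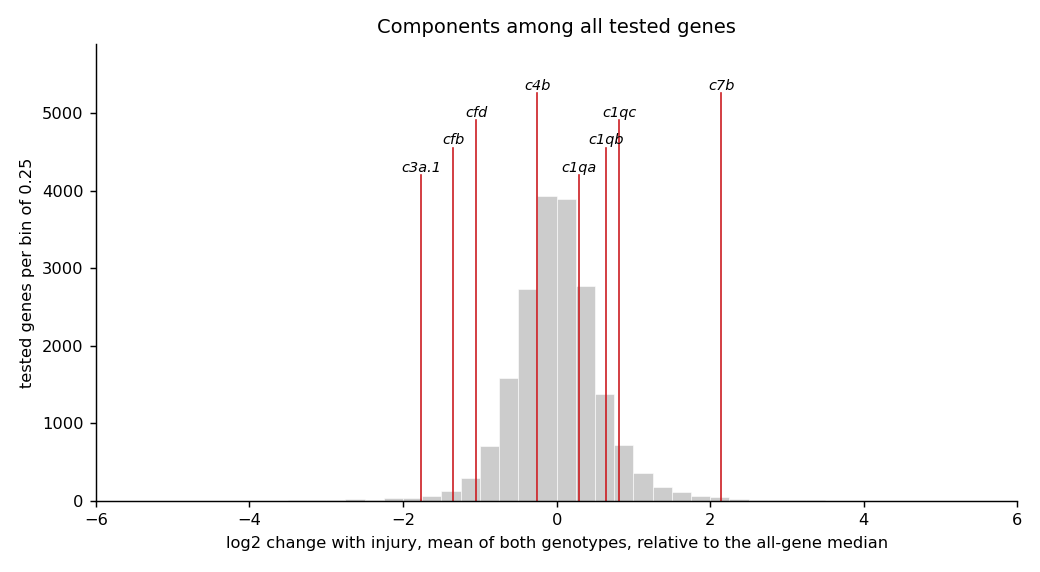
Distribution of the averaged log2 injury change over the 19114 genes tested, with the 8 members marked. The median of all genes is at 0 by construction; c7b, at 2.14, lies in the upper tail and c3a.1, at -1.76, in the lower tail.

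Genes nearest to the other members in pattern were rpa2, unc50 and bckdhb for c1qa, with differences of 0.107 to 0.115, and ift57, zgc:112332 and ifi35 for c1qb, at 0.179 to 0.193. For c1qc they were prrc1 (0.0967), myo1ea (0.0978) and vamp4 (0.171), and for c4b mydgf, inpp5ka and plch2a, at 0.101 to 0.112. The pattern of c7b lay nearest to gnsb (0.189), ddit4 (0.203) and abca1a (0.222), and that of cfd to si:ch211-277c7.7 (0.0958), smdt1a (0.171) and zdhhc2 (0.183). The search covered the genes tested with a mean of at least 5 CPM, 11876 at most. The means of c1qa, c1qc and cfb, at 0.684, 2.46 and 2.76 CPM, were below that limit, so these could not be found. Among the members that could be found, none was the nearest of another except c3a.1 for cfb. Without the limit cfb was nearer to c3a.1 (0.361) than the listed apobb.1 (0.439). Among the members, c1qb and c1qc differed by 0.329. Since c1qa lay between 0.269 and 1.29 CPM, the pseudocount of 1 shrank its changes, and its nearest genes are partly set by that. The ratio of mean CPM of c1qa with injury was 3.15. Its nearest gene rpa2 ran from 22.9 to 28.2 CPM in uninjured and from 30.3 to 43.3 CPM in injured libraries.

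The genotypes were then compared for each member. In the uninjured cord 0 of 8 members were called, where 0% of all genes were called by limma and 4.46% had an unadjusted p under 0.05; among the members 1 had, c3a.1. At 1 wpi 0 of 8 were called, against 0.267% of all genes, with 0 members at an unadjusted p under 0.05 against 2.11% of all genes. For the difference between the injury changes of the genotypes, 0 of 8 were called, against 0.565% of all genes, with 0 members at an unadjusted p under 0.05 against 3.24% of all genes. edgeR and DESeq2 called 0 of 8 members in each of these comparisons. The mutated gene mstnb, lower in every mutant library, was itself not called by limma between genotypes. It differed by -1.75 ± 0.42 (log2, SE) uninjured (limma adjusted p = 0.421) and by -1.55 ± 0.42 at 1 wpi (limma adjusted p = 0.478). The lack of calls among the members therefore does not show equal levels.

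For c7b the mutants differed from wild type by -0.02 ± 0.34 (log2, SE) uninjured and by 0.13 ± 0.34 at 1 wpi, and the injury change differed between genotypes by 0.14, with a 95% interval from -0.90 to 1.18. Both injured mutants were above both injured wild types, a separation that 20.1% of all genes had at 1 wpi in that direction. For cfd the difference at 1 wpi was -0.53 ± 0.34, with the groups apart, as for 15.6% of all genes in that direction, and the injury changes differed by -0.55 with a 95% interval from -1.58 to 0.49. The genotype differences of c1qa, c1qb, c1qc and c4b ran from -0.42 (c1qb) to 0.22 (c1qc) uninjured and from -0.34 (c1qc) to 0.09 (c1qb) at 1 wpi, all with overlapping groups. For c1qc the interval of the difference between injury changes was -1.85 to 0.71, and for c1qb it was -0.82 to 1.83. These intervals include differences as large as the injury changes of the C1q genes themselves. The value of c3a.1 in uninjured mutants against wild type, -1.89 ± 0.82 (limma adjusted p = 0.982), and that of cfb, -1.73 ± 0.92 (limma adjusted p = 0.982), share uninjured wild type 1 with the wild-type injury comparison. Without that library the c3a.1 value was -0.06. At 1 wpi both injured mutants were below both injured wild types for c3a.1, without use of that library, as for 15.6% of all genes in that direction. The reads were 28 and 17 in mutants against 39 and 64 in wild type. The difference was -0.82 ± 0.82 (log2, SE) and was not called by limma. That SE comes from a spread fitted over all 4 groups, so, unlike the separation, it includes uninjured wild type 1. With the replicate block the difference became 0.30. That block sets aside injured wild type 3, the only library of its number, and its adjustment uses uninjured wild type 1.

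The authors' deposited table of injury in wild type lists c7b at a log2 fold change of 1.98 (adjusted p = 3.41e-87), c1qc at 1.66 (0.000599) and cfd at -0.89 (5.93e-06). The authors' deposited table also lists c3a.1 at -2.56 (2.69e-16) and cfb at -2.93 (0.000277), whereas c1qa, c1qb and c4b have adjusted p-values there of 0.179, 0.264 and 0.287. For uninjured mutants against wild type, the authors' deposited table has c3a.1 at -2.21 (1.93e-12) and cfb at -2.96 (0.000470). For the genotypes at 1 wpi, the authors' deposited table has c3a.1 at -1.41 (0.00333) and cfd at -0.60 (0.0280). By contrast limma, edgeR and DESeq2 here called 0 of 8 members in that comparison. No all-gene median was subtracted from the deposited values. Their SE of c3a.1 for injury in wild type was 0.298, against 0.82 by limma here. Both c3a.1 and cfb in the first pair of these comparisons rest on the uninjured wild-type libraries, whose values differed by 12.9 times for c3a.1 and 66.8 times for cfb.

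A wider list of 61 complement genes, of which 48 were in the table and 38 were tested, gives the setting. With injury, 4 were called higher in wild type and 4 in mutants, c7b, c6, c7a and itgb2 in both cases, and 0 lower, where 3.86% and 3.19% of all genes were called. Averaged over genotypes 7 of 38 were called higher, the same 4 with c1qc, c3b.1 and cfp, and 0 lower, against 12.2% of all genes. Leaving out 1 library at a time, the number called ran from 0 to 19 in wild type, 0 to 5 in mutants and 4 to 24 averaged, with the highest values without uninjured wild type 2 (wild type, averaged) or 1 (mutants) and the lowest without injured wild type 1 (wild type) or uninjured mutant 1 (mutants, averaged). DESeq2 called 12, 4 and 18. The median change of the list was nonetheless negative in each comparison, at -0.52, -0.29 and -0.53 (log2). Some listed genes, like cfb, passed the expression filter only through the uninjured wild type. The values for wild type and for the average are therefore partly set by the filter. With no filter on low values the median was -0.37, -0.25 and -0.40. Without uninjured wild type 1 it was 0.21, -0.23 and 0.02. Of the 30 genes tested that are not members, 3 were called in wild type, 3 in mutants and 5 on average.

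Of the 7 terminal component genes tested, 3 were called higher and 0 lower with injury in each genotype, c6, c7a and c7b. The share of all genes called in either direction was 3.86% in wild type and 3.19% in mutants. The median change of the 7 genes was -0.59 in wild type and -0.23 in mutants (log2), with 3 of 7 above the median of all genes in each. Expression of c6, which encodes the component that binds C5b, was 6.92 and 5.31 CPM in uninjured wild type, 5.78 and 5.75 CPM in uninjured mutants, 21.2 and 21.9 CPM in injured wild type, and 18.8 and 18.8 CPM in injured mutants. Its averaged change was 1.30 ± 0.24 (log2, SE; limma adjusted p = 0.00154). Since c6 and c7b overlap in GRCz12tu and no source used here gives the strand setting, reads in the overlap cannot be assigned to one of them. The second C7 gene, c7a, lies elsewhere and had 27.4 and 10.9 CPM in uninjured wild type, 14.5 and 19.99 CPM in uninjured mutants, 56.7 and 87.2 CPM in injured wild type, and 78.2 and 79.4 CPM in injured mutants. Its averaged change was 1.74 ± 0.29 (limma adjusted p = 0.00105), and the averaged calls of c6 and c7a held in all 17 alternatives. In single genotypes the c6 call was lost in 8 of 18 alternatives in wild type and 11 of 18 in mutants, and that of c7a in 5 and 6 of 18. The pore-forming c9 had 18.1 CPM in uninjured wild type 1 and 0.264 to 3.11 CPM in the other libraries, and was not called.

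Among the remaining roles, itgb2, the beta chain of the leukocyte integrin that binds fragments of C3, had an averaged change of 1.39 ± 0.21 (log2, SE; limma adjusted p = 0.000493). The c3 copy c3b.1 had 1.01 ± 0.34 (limma adjusted p = 0.0271), and cfp, which encodes the stabilizing protein properdin, had 0.55 ± 0.26 (limma adjusted p = 0.0464). The last pair lost their calls in 7 and 12 of 17 alternatives, TMM scaling included. Each adjusted p of these roles belongs to the difference before the all-gene median, 0.31, was subtracted. Among the regulators 0 of 7 were called; clu, encoding clusterin, had 0.23 ± 0.20 (limma adjusted p = 0.0981) and cd59, encoding an inhibitor of the pore, had -0.52 ± 0.23 (limma adjusted p = 0.589). Of the classical and lectin initiators 1 of 8 was called on average, c1qc; masp1, a protease of the lectin route, had 0.65 ± 0.31 (limma adjusted p = 0.0604). The lectin colec11 had -0.53 ± 0.29 (limma adjusted p = 0.657), the C1q-binding protein gene c1qbp 0.01 ± 0.20 (limma adjusted p = 0.318) and c3a.4 0.75 ± 0.43 (limma adjusted p = 0.126).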

How the data were processed

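Per the file headers, the 4 deposited tables hold CPM of 8 libraries and the authors' own comparison values: baseMean (a normalized read signal), log2 fold changes, a test score and p-values; the baseMean and score were not used. Per the labels, total RNA was sequenced as 50 bp paired-end reads. The tools Bowtie2, Cufflinks and Cuffdiff appear, without roles, in the submitters' processing notes; no source used here gives the build, annotation, counting program or strand. The CPM values gave whole reads within 0.01 reads for 100% of values, and thereby the depth. The column for injured wild type numbered 3 matches no label number and was placed by its group name.

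limma 3.58.1 (R 4.3.3, trended prior) was fitted to log2(CPM + 1) with 4 group means over 8 libraries (4 residual degrees of freedom), on those 19114 of 25309 genes whose mean reached 1 CPM in any group. The pseudocount understates changes of low genes. Benjamini-Hochberg adjustment ran over all genes tested, separately in each of 6 comparisons. Alternatives used edgeR 4.0.16 and DESeq2 1.42.0 on the recovered read counts from the deposited CPM, other pseudocounts, no filter, TMM scaling, an untrended prior, a replicate block and leaving out libraries. The script was tested on simulated counts. Replicates of a group correlated at 0.902 to 0.978 across genes and none was a duplicate.

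The members and lists were chosen with earlier results of these data known. The text names all members, every complement gene called, the 12 other complement genes of highest mean CPM, the 3 genes nearest to each member in pattern, and mstnb. Exceptions named after their values were seen are c9 and single cell type markers. Listed complement genes not found in the table, such as c3ar1 and c5ar1, were not analysed here. No sequences are shown.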

Additional observations from a re-analysis of the deposited data

Results flagged for a closer look

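The terminal component gene c8g, whose product is the gamma chain of C8, had 15.04 and 2.47 CPM in uninjured wild type, 1.54 and 2.36 CPM in injured wild type, 2.87 and 3.07 CPM in uninjured mutants, and 3.15 and 3.57 CPM in injured mutants. In CPM both injured wild-type libraries were below both uninjured ones and both injured mutants above both uninjured mutants. The nearest values were close, at 2.36 and 2.47 CPM in wild type and 3.07 and 3.15 CPM in mutants. Dividing by the TMM factors would put uninjured mutant 1 above both injured mutants, so the separation in mutants holds in CPM only. How many of all genes had such separations within a genotype was not counted, so how unusual these are is not known. Relative to the median of all genes the change was below 0 in both genotypes, at -1.64 in wild type and -0.23 in mutants. The difference between the injury changes was 1.485 on the log2(CPM + 1) scale, or 1.40 ± 0.85 (SE) relative to the median of all genes, and it was not called (limma adjusted p = 1.00). The wild-type value rests on uninjured wild type 1, which was high in liver transcripts; without that library the wild-type change was -0.37. The part of liver RNA in it was not tested.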

How the results depend on the processing

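The number of members called was 1 for injury in wild type, 1 in mutants, 2 averaged, and 0 in the other 3 comparisons. It changed to 0 in wild type when only the groups compared were fitted, to 2 in mutants and 4 averaged with DESeq2, and to 1 averaged without the 2 libraries richest in oocyte transcripts, an alternative chosen after seeing the data. With TMM scaling or edgeR the averaged count stayed at 2, but cfd was called in place of c1qc. Leaving out 1 library at a time, the counts ran from 0 to 4 in wild type, 0 to 1 in mutants, 1 to 6 averaged, 0 to 2 between uninjured genotypes and 0 to 1 for the interaction; where a group was left with 1 library, that library is assumed to vary like the others. The highest of these came without uninjured wild type 2, where c3a.1 and cfb then rest on uninjured wild type 1 alone. Of all genes tested, the number called ran from 57 to 3834 in wild type, 56 to 1751 in mutants, 818 to 5565 averaged, 0 to 825 between uninjured genotypes, 0 to 231 at 1 wpi and 0 to 350 for the interaction. Of the averaged calls 2104 were higher and 231 lower; with TMM scaling these were 1049 and 568, with edgeR 864 and 639, with DESeq2 1387 and 1365. In wild type the main split was 555 and 182, against 411 and 237, 287 and 221, and 781 and 926; in mutants it was 562 and 48, against 184 and 59, 132 and 38, and 544 and 311.

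Replicate numbers were not taken to pair the samples. Same-numbered libraries deviated together with correlations of 0.199 to 0.299 across genes, but over 2 numbers only and with no label of a shared batch. Number 3 occurs in injured wild type only, so a block by number sets that library aside. Injured wild type then rests on library 1 alone. With the replicate block, 3 members were called in wild type (c7b, c3a.1 and cfb) and 5 averaged (these with c1qb and c1qc), and 1277 and 3442 of 19114 genes were called.

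Some uncalled changes, most near 0, changed sign; the cause was not tested. With a pseudocount of 0.5 these were c1qbp (-0.022) for averaged injury. With a pseudocount of 5 these were clu (0.064) for injury in wild type, c1qa (-0.060) and c1qbp (0.027) for injury in mutants, c1qa (-0.0003632) for averaged injury and cfd (-0.0072) for uninjured genotypes. With no filter on low values these were clu (0.049) for injury in wild type, c1qbp (0.042) and c3a.4 (0.021) for injury in mutants and c1qa (-0.019) and cfd (-0.036) for uninjured genotypes. With TMM scaling these were c1qbp (-0.055) for averaged injury and c1qa (-0.039) and c7b (0.0020) for uninjured genotypes. With edgeR these were c1qbp (-0.041) for averaged injury and c1qa (-0.067) for uninjured genotypes. With DESeq2 these were c1qbp (-0.045) for averaged injury and c1qa (-0.075) for uninjured genotypes. With the replicate block these were clu (0.0007117) and c1qbp (-0.020) for injury in wild type, c1qbp (-0.045) for averaged injury and c1qb (-0.074), c3a.1 (0.30), c4b (0.020) and cfb (1.04) for genotypes at 1 wpi. Without the 2 libraries richest in oocyte transcripts these were c4b (0.27), clu (0.053) and colec11 (0.013) for injury in wild type, c1qa (-0.12) and c3a.4 (0.53) for injury in mutants, c4b (0.36) for uninjured genotypes and c3a.1 (-0.99) and c4b (-0.61) for the interaction. Leaving out 1 library at a time also turned signs. For injury in wild type the ranges were -0.81 to 0.27 for c4b, -0.17 to 0.053 for clu, -0.17 to 0.37 for c1qbp and -0.92 to 0.013 for colec11. For injury in mutants the ranges were -0.12 to 0.46 for c1qa, -0.24 to 0.025 for c1qbp, -0.79 to 0.53 for c3a.4, -0.47 to 0.0065 for c8g and -1.31 to 0.14 for cfb. For averaged injury the ranges were -0.51 to 0.023 for c4b and -0.12 to 0.15 for c1qbp. For uninjured genotypes the ranges were -0.20 to 0.25 for c1qa, -0.98 to 0.12 for c1qb, -0.097 to 0.51 for c1qc, -0.69 to 0.37 for c4b, -0.38 to 0.37 for c7b and -0.25 to 0.24 for cfd. For genotypes at 1 wpi the ranges were -0.46 to 0.11 for c1qa, -0.18 to 0.37 for c1qb and -0.45 to 0.078 for cfb. For the interaction the ranges were -0.49 to 0.090 for c1qa, -0.025 to 1.06 for c1qb, -0.75 to 2.88 for c3a.1, -0.50 to 0.55 for c4b and -0.25 to 0.51 for c7b.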
